A study of Mus musculus with 4 samples.

Results

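The miR-143 and miR-145 cluster consists of a pair of miRNA precursors that give 4 mature miRNAs, named miR-143-3p, miR-143-5p, miR-145a-5p and miR-145a-3p. These 4 were chosen by name, and all of them had reads in every sample, out of 869 miRNAs with reads in any sample. The samples were C2C12 myotubes, which form when cells of this mouse skeletal myoblast line (strain background 129/Rej in the labels) fuse in medium with little serum. RNA was taken at day 6 of differentiation from 2 samples without guanidinoacetic acid (NC) and 2 samples with 20 mM of it (GAA), the precursor of creatine. All of them were samples of the C2C12 line with no genetic change named, and the labels do not say whether the replicates were separate cultures, so the spread between them may be technical.

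The precursors are cut from a common primary transcript, and each hairpin can release a miRNA from its 5′ arm (5p) and from its 3′ arm (3p). The arm that is loaded into the silencing complex is usually the abundant one (the guide), and the opposite arm (the passenger) is mostly degraded. miR-143 and miR-145 are known as miRNAs of mesenchymal cells and above all of smooth muscle, where serum response factor and its partner myocardin drive their transcription and where miR-145 favours the contractile state. In skeletal muscle they are better known from the connective tissue and vessel walls than from the fibres. Mir143 occupies 61649196 to 61649258 and Mir145a 61647825 to 61647894 of chromosome 18, both on its minus strand (GRCm38, GENCODE M21), with 1301 bases between them. RefSeq on the same assembly (GRCm38.p6) places both inside the long non-coding RNA gene Carmn, at 61645878 to 61665538.

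Levels are given as RPM, the reads of a miRNA scaled to a fixed total of reads that mapped to the genome, and as a share of all miRNA reads of the sample. Where a group has a pair of values, replicate 1 comes first. Mappable reads, inferred from the RPM of a single read, numbered 4732359 to 5657704 per sample. The miRNA reads, summed over all listed miRNAs, numbered 1653803 to 3134241. Some listed miRNAs had the same values as another, such as miR-199a-3p and miR-199b-3p, and both entered this sum. The miRNA reads made up 33.6% and 43.6% of the mappable reads in NC, and 56.3% and 50.4% in GAA. An RPM value therefore rises with the miRNA part of a library even when the miRNA profile stays the same, and levels and changes of the members are given on both scales. In RPM, 3 reads corresponded to 0.530 to 0.634, taken as the floor. Intervals on shares of single samples are 95% Wilson intervals and cover only the counting of reads.

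miR-143-3p, the guide of its hairpin, was one of the most abundant miRNAs in these myotubes. The NC samples had 31354 and 40011 RPM, and the GAA samples 42646 and 50968 RPM. Both GAA samples were above both NC samples on this scale, but NC-2 and GAA-1 were close to each other. As a share of miRNA reads, miR-143-3p took 9.34% (9.29% to 9.38%) and 9.17% (9.13% to 9.21%) without GAA. With GAA it took 7.57% (7.54% to 7.60%) and 10.1% (10.08% to 10.15%). On the share scale the GAA samples were the lowest and the highest of the 4, so that the groups overlapped, and the counting intervals were far narrower than the distance between the replicates.

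By mean RPM over the 4 samples miR-143-3p ranked 4 of 869, below miR-27b-3p, miR-21a-5p and miR-22-3p and above miR-26a-5p. It ranked 3 in NC-2 and 4 in each of the other samples. Its neighbour above, miR-27b-3p, had 38906 and 38058 RPM in NC and 55847 and 58502 RPM in GAA. The levels of this pair overlapped in NC, where miR-143-3p was above miR-27b-3p in NC-2 and below it in NC-1, and did not overlap in GAA. The neighbour below, miR-26a-5p, had 14725 to 23856 RPM and was under every value of miR-143-3p.

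miR-145a-5p, the guide of the other hairpin and the form usually meant by miR-145, was far less abundant. The NC samples had 481 and 654 RPM (2370 and 3094 reads), and the GAA samples 914 and 441 RPM (5090 and 2495 reads). The highest and the lowest of these values both came from GAA, and the NC samples lay between them. As a share of miRNA reads it was 0.143% and 0.150% without GAA and 0.162% and 0.0875% with GAA, so that 3 samples were close together and GAA-2 was low. By mean RPM it ranked 64, between miR-192-5p and miR-148a-3p, whose values across samples overlapped with its own.

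miR-145a-3p, the opposite arm, had 162 and 112 RPM without GAA (799 and 528 reads) and 183 and 173 RPM with GAA (1016 and 979 reads). In RPM both GAA samples were above both NC samples. As a share of miRNA reads it was 0.0483% and 0.0256% without GAA and 0.0324% and 0.0343% with GAA, and here the NC samples were the outer values. It ranked 108 by mean RPM, beside miR-322-3p (rank 107) and miR-125b-2-3p (rank 109), with overlapping values.

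miR-143-5p, the passenger of the abundant guide, was the rarest of the 4. The NC samples had 9.14 and 8.03 RPM (45 and 38 reads), and the GAA samples 15.4 and 12.7 RPM (86 and 72 reads). Both GAA samples were above both NC samples in RPM. As a share of miRNA reads it was 0.00272% and 0.00184% without GAA and 0.00274% and 0.00253% with GAA, where NC-1 and GAA-1 were nearly equal and NC-2 was low. It ranked 240, and its values overlapped with those of miR-326-3p (rank 239) and miR-92b-3p (rank 241). The order miR-143-3p, miR-145a-5p, miR-145a-3p, miR-143-5p held in each of the 4 samples, and the RPM ranges of successive members did not overlap.

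**Figure D1:**
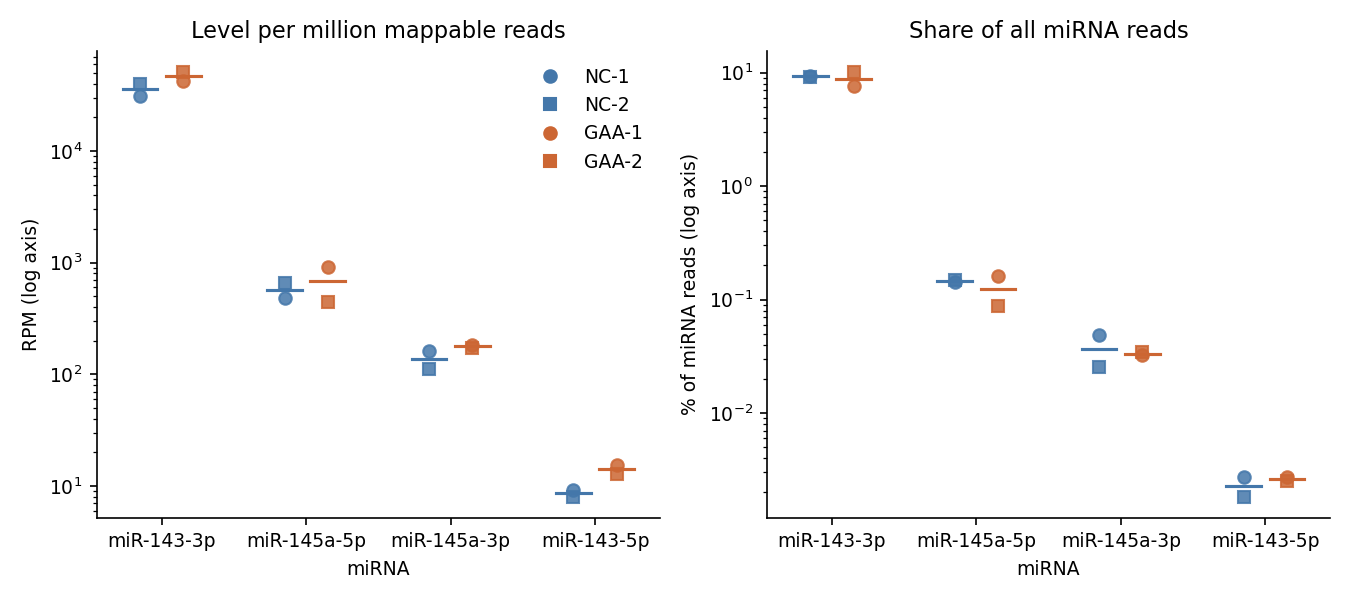
Levels of the 4 miRNAs of the cluster in NC (blue) and GAA (orange), as RPM (left) and as % of miRNA reads (right), both on log axes. Points are samples (circle, replicate 1; square, replicate 2) and short lines are group means of 2 samples. miR-143-3p, from 31354 to 50968 RPM, sits far above the other 3, and the widest pair of replicates is GAA for miR-145a-5p in RPM (914 and 441) and NC for miR-145a-3p in share (0.0483% and 0.0256%).

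The 4 miRNAs together held 9.53% and 9.34% of all miRNA reads without GAA, and 7.77% and 10.2% with GAA. The NC mean was 9.44% ± 0.13 (SD, n = 2) and the GAA mean 9.01% ± 1.75 (SD, n = 2), a difference well within the spread of the GAA samples. Within the cluster the mir-143 hairpin supplied almost all reads, with 98.0% (97.9% to 98.1%) and 98.1% (98.06% to 98.18%) without GAA, and 97.5% (97.43% to 97.55%) and 98.8% (98.77% to 98.85%) with GAA. The mir-145a hairpin supplied the remaining 2.01% and 1.88% without GAA, and 2.51% and 1.19% with GAA.

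The partners of the cluster were compared within each library, where the divisor of the reads cancels. miR-143-3p exceeded miR-145a-5p 65.2-fold and 61.2-fold in the NC samples, and 46.6-fold and 116-fold in the GAA samples. The NC samples lay close together, between the GAA samples, which differed from each other 2.48-fold. On the log2 scale the NC mean was 5.98 ± 0.06 (SD, n = 2) and the GAA mean 6.20 ± 0.92 (SD, n = 2). The difference of 0.22 was smaller than the spread between the GAA samples (exact permutation test, two-sided, p = 1, where 2 samples against 2 cannot go below 0.333). It was 0.87 without GAA-1 and -0.44 without GAA-2, so its direction rested on which GAA sample was used. With both arms of each hairpin summed, mir-143 exceeded mir-145a 38.9-fold to 83.0-fold. The 2 passengers stood in the reverse order, with miR-145a-3p 11.8-fold to 17.8-fold above miR-143-5p.

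The same ratio was computed for neighbouring precursors elsewhere in the genome, to show how unequal partners usually were in these libraries. There were 34 pairs of neighbours on the same strand, no more than 10 kb apart, in which each precursor has a single genomic locus and its main arm at least 10 reads in every sample. Only precursors named with miR and a number, and with a gene symbol that matches, could enter, so let-7 precursors were left out. A precursor left out may therefore lie between the members of a pair. Over these pairs the higher partner exceeded the lower by a median of 4.68-fold, and miR-143-3p over miR-145a-5p, at 68.0-fold (geometric mean of 4 samples), ranked 4. The pairs above it were miR-351-5p over miR-503-3p, miR-322-5p over miR-503-3p and miR-182-5p over miR-96-5p. Directly below it, miR-191-5p over miR-425-5p differed 51.6-fold, with a range of only 50.2-fold to 54.0-fold over the 4 samples. The gap between GAA-1 and GAA-2 in the ratio of miR-143-3p to miR-145a-5p, 1.31 on the log2 scale, was the largest of the 34 pairs (median 0.30), whereas its gap between NC-1 and NC-2, 0.09, ranked 28. Some pairs share a precursor, so they are not independent, and these ranks are a description.

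**Figure D2:**
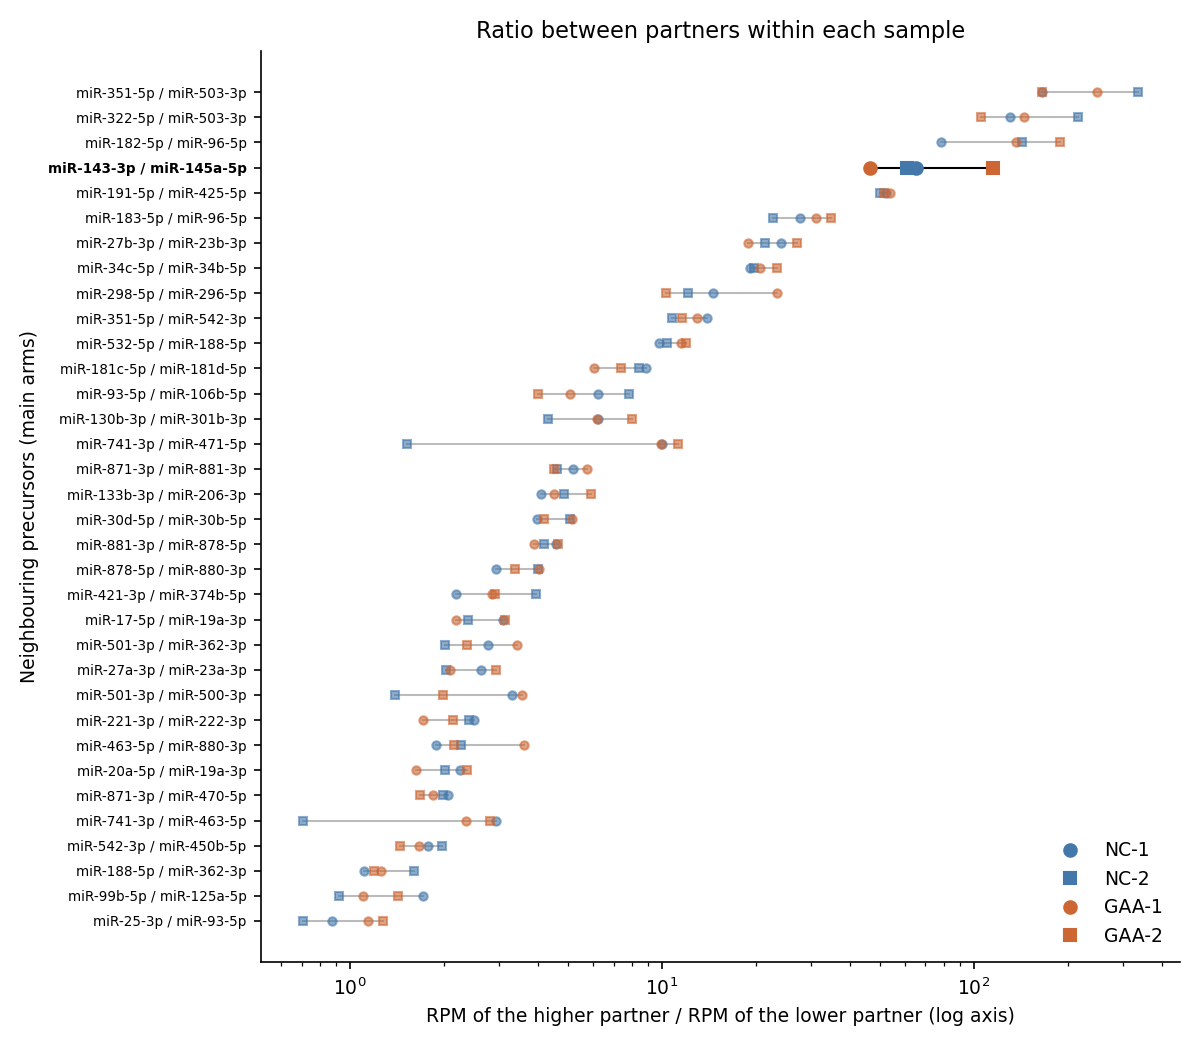
Ratio of RPM between neighbouring precursors in each sample (log axis), for 34 pairs ordered by their mean ratio; points are samples, coloured by group, and grey lines span the 4 samples. The pair miR-143-3p over miR-145a-5p (bold label, black line) ranks 4, with both NC samples near 61.2 and 65.2 and the GAA samples apart at 46.6 and 116.

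The arms of the 2 hairpins were used in very different proportions. For mir-143, the 3p arm exceeded the 5p arm 3431-fold and 4983-fold without GAA and 2760-fold and 4005-fold with GAA, and 5p made up 0.0201% to 0.0362% of its reads. For mir-145a, the 5p arm exceeded the 3p arm 2.97-fold and 5.86-fold without GAA and 5.01-fold and 2.55-fold with GAA. The 5p arm accordingly made up 74.8% (73.2% to 76.3%) and 85.4% (84.2% to 86.5%) of the mir-145a reads in the NC samples, and 83.4% (82.4% to 84.3%) and 71.8% (70.3% to 73.3%) in the GAA samples. Thus NC-1 resembled GAA-2, and NC-2 resembled GAA-1, with the replicates of each group on opposite sides and further apart than their counting intervals.

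Among 85 precursors with at least 10 reads of both arms in every sample, 49 had more reads of 5p and 36 more of 3p on average. The median difference between arms was 4.02 on the log2 scale, and 52 precursors differed more than 10-fold. mir-143 had the most unequal arms of all 85, with a mean log2 ratio of 5p over 3p of -11.73 after 1 RPM was added to each arm, followed by mir-22. Only miRNAs with a rare arm that still reached 10 reads could enter this order, and an abundant precursor can show a larger ratio than a rare one. Precursors whose arm names differ in a locus number, such as miR-26a-5p and miR-26a-2-3p, were left out here and in the test of arms below. mir-145a ranked 59, at 1.94 on the same scale, next to mir-106b and mir-34b.

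Whether GAA shifted the choice of arm was tested with limma on the log2 ratio of 251 precursors. Each of their arms had reads in some sample, though not necessarily in all, and a missing arm was set to 0. Of these precursors, 0 (0%) passed an adjusted p under 0.01 with a change above 1 on the log2 scale, and 19 had an unadjusted p under 0.05. The change from NC to GAA in log2 of 5p over 3p was 0.25 (standard error 0.35, 95% interval -0.57 to 1.08, adjusted p = 0.908 with limma) for mir-143. It was -0.22 (standard error 0.46, interval -1.32 to 0.88, adjusted p = 0.955 with limma) for mir-145a. The replicates differed by 0.98 in NC and 0.97 in GAA for mir-145a, against medians of 0.35 and 0.36 over the 85 precursors, and only 5 and 6 precursors had larger gaps. For mir-143 the replicate gaps were 0.52 in both groups. The direction of change for each hairpin reversed when single samples were left out, from -0.0045 to 0.51 for mir-143 and from -0.71 to 0.27 for mir-145a.

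**Figure D3:**
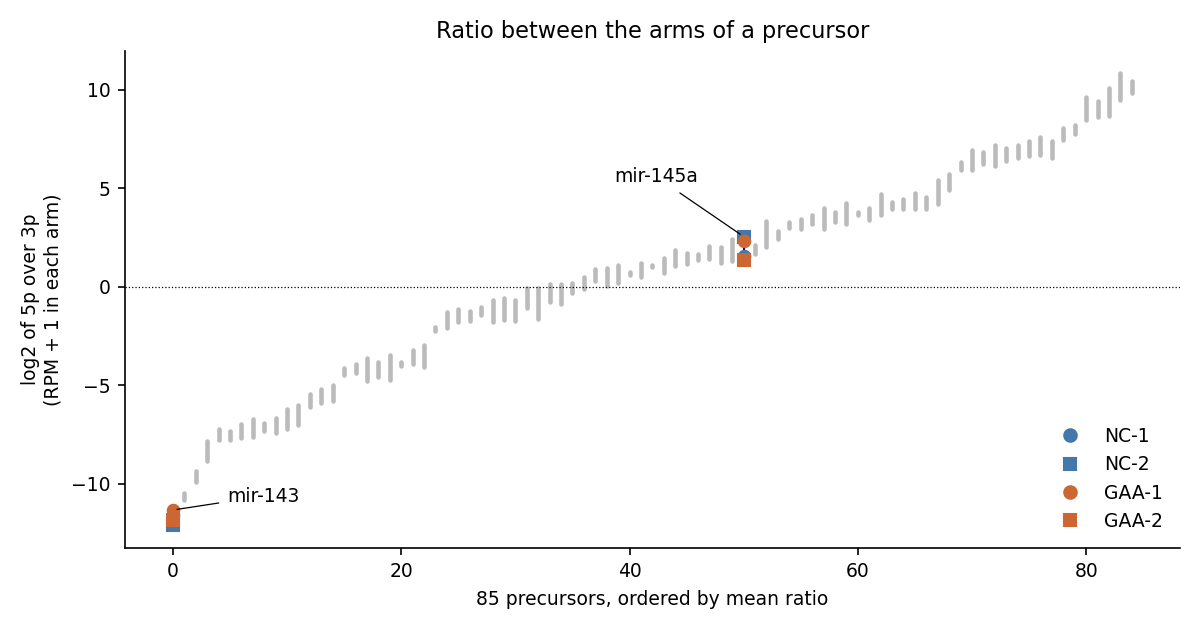
log2 of the 5p level over the 3p level (1 RPM added to each arm) in 85 precursors, ordered by mean ratio; grey bars span the 4 samples, and points show the samples of mir-143 and mir-145a. mir-143 lies at the far 3p end, near -11.73, and mir-145a among the moderately 5p-rich precursors, near 1.94, with samples of both groups intermixed.

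The effect of GAA on the level of each miRNA was tested with limma over all 869 miRNAs, with a miRNA called at an adjusted p under 0.01 with a log2 fold change beyond 1 in either direction. On log2(RPM + 1), 0 miRNAs (0%) were called and 152 had an unadjusted p under 0.05. On the log2 share of miRNA reads, 1 miRNA (0.115%) was called, miR-208b-3p, and 70 had an unadjusted p under 0.05. None of the 4 miRNAs of the cluster was called on either scale.

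For miR-143-3p the NC mean was 35682 ± 6121 RPM (SD, n = 2) and the GAA mean 46807 ± 5885 RPM (SD, n = 2). The log2 fold change was 0.40 (standard error 0.25, 95% interval -0.29 to 1.08, adjusted p = 0.459 with limma). As a share of miRNA reads the NC mean was 9.25% ± 0.12 and the GAA mean 8.84% ± 1.80, and the log2 fold change was -0.08 (interval -0.67 to 0.51, adjusted p = 0.923 with limma). The sign thus differed between the scales, and both intervals included 0.

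For miR-145a-5p the NC mean was 568 ± 122 RPM (SD, n = 2) and the GAA mean 678 ± 335 RPM (SD, n = 2). The log2 fold change was 0.18 (standard error 0.43, interval -0.997 to 1.35, adjusted p = 0.796 with limma) in RPM and -0.30 (standard error 0.27, interval -0.91 to 0.32, adjusted p = 0.781 with limma) in share. Without GAA-2 it was 0.70 in RPM and 0.15 in share, and without GAA-1 it was -0.35 and -0.74. Leaving out NC-1 also turned it in RPM, to -0.042. The 2 GAA samples therefore gave opposite directions, and a change of this miRNA was not determined by these data.

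For miR-145a-3p the NC mean was 137 ± 36 RPM (SD, n = 2) and the GAA mean 178 ± 7 RPM (SD, n = 2), and the log2 fold change was 0.40 (interval -0.26 to 1.06, adjusted p = 0.443 with limma). In share the log2 fold change was -0.07 (interval -0.71 to 0.56, adjusted p = 0.928 with limma), and it was 0.38 without NC-1 and -0.53 without NC-2.

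For miR-143-5p the NC mean was 8.58 ± 0.78 RPM (SD, n = 2) and the GAA mean 14.1 ± 1.9 RPM (SD, n = 2), the largest relative difference of the 4. Its log2 fold change was 0.65 (standard error 0.21, interval 0.08 to 1.22, unadjusted p = 0.0341 and adjusted p = 0.272 with limma), and it ranged from 0.52 to 0.78 with each sample left out. It was 0.16 with median-of-ratios factors, 0.22 with miRNA reads other than miR-143-3p as the divisor and 0.31 without the 5 most abundant miRNAs. In share it was 0.22 (interval -0.45 to 0.90, adjusted p = 0.781 with limma).

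These values were set against 323 miRNAs that had 10 or more reads in each sample, to which all 4 members belong. Their median log2 fold change was 0.49 in RPM and 0.02 in share. Relative to the median in RPM, miR-143-3p stood at -0.09, miR-145a-5p at -0.31, miR-145a-3p at -0.09 and miR-143-5p at 0.16. In RPM, both GAA samples were above both NC samples for 64.4% of the 323 miRNAs and below them for 2.79%. Of the cluster, 3 of the 4 members (miR-143-3p, miR-143-5p and miR-145a-3p) were above, a share near that background. In share, 22.9% of the 323 miRNAs were above and 19.8% below, and all 4 members overlapped.

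**Figure D4:**
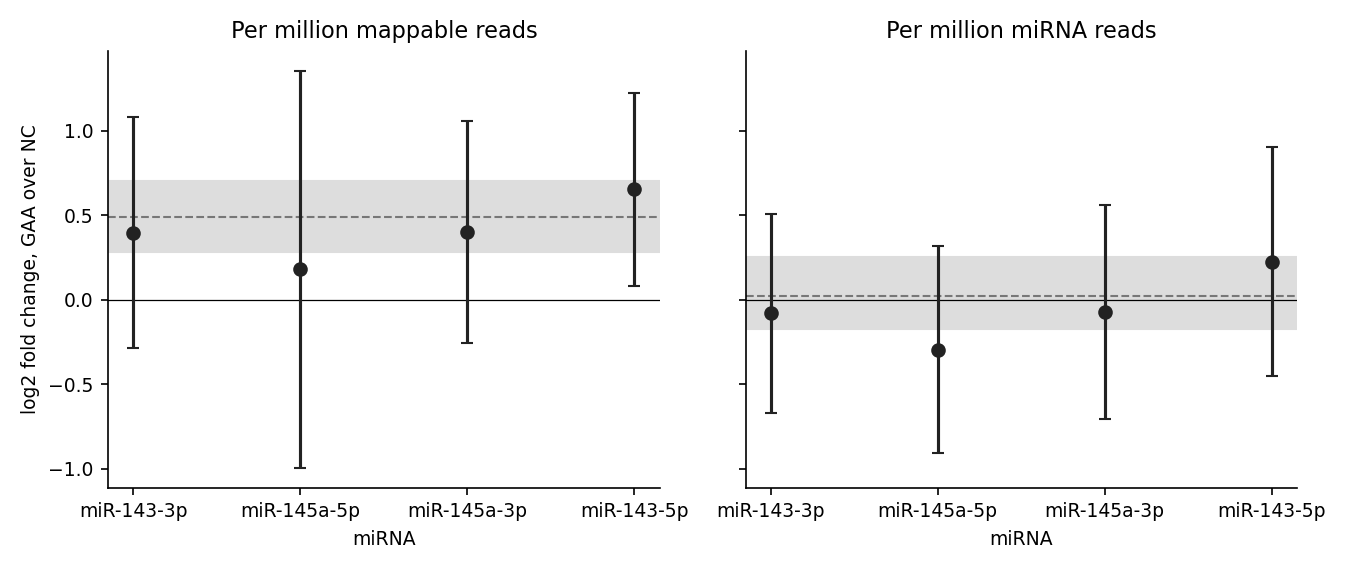
log2 fold change of GAA over NC for the 4 miRNAs with the 95% interval of the limma fit, in RPM (left) and in share of miRNA reads (right). The dashed line and grey band are the median and the interquartile range of the same 323 miRNAs, at 0.49 (0.28 to 0.70) in RPM and 0.02 (-0.18 to 0.25) in share. The shift between the scales comes from the change of divisor, which moves all these miRNAs by nearly the same amount. Every interval reaches into the band.

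Where the replicate spread of the members lay depended in part on the scale. In share of miRNA reads, the gap between NC-1 and NC-2 was 0.03 on the log2 scale for miR-143-3p and 0.06 for miR-145a-5p, against a median of 0.26 over the 323 miRNAs. Between GAA-1 and GAA-2 these guides differed by 0.42 and 0.89, against a median of 0.24, and in opposite directions, with miR-143-3p higher in GAA-2 and miR-145a-5p higher in GAA-1. The passengers showed the reverse, with gaps of 0.92 (miR-145a-3p) and 0.54 (miR-143-5p) in NC and of 0.08 and 0.12 in GAA. On log2(RPM + 1) the contrast held for the miR-145a arms, with gaps in NC and GAA of 0.44 and 1.05 for miR-145a-5p and of 0.54 and 0.08 for miR-145a-3p. It turned for both arms of mir-143, with 0.35 and 0.26 for miR-143-3p and 0.17 and 0.26 for miR-143-5p. In share, only 8 of the 323 miRNAs had a larger gap in NC than miR-145a-3p, and only 13 had a larger gap in GAA than miR-145a-5p.

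**Figure D5:**
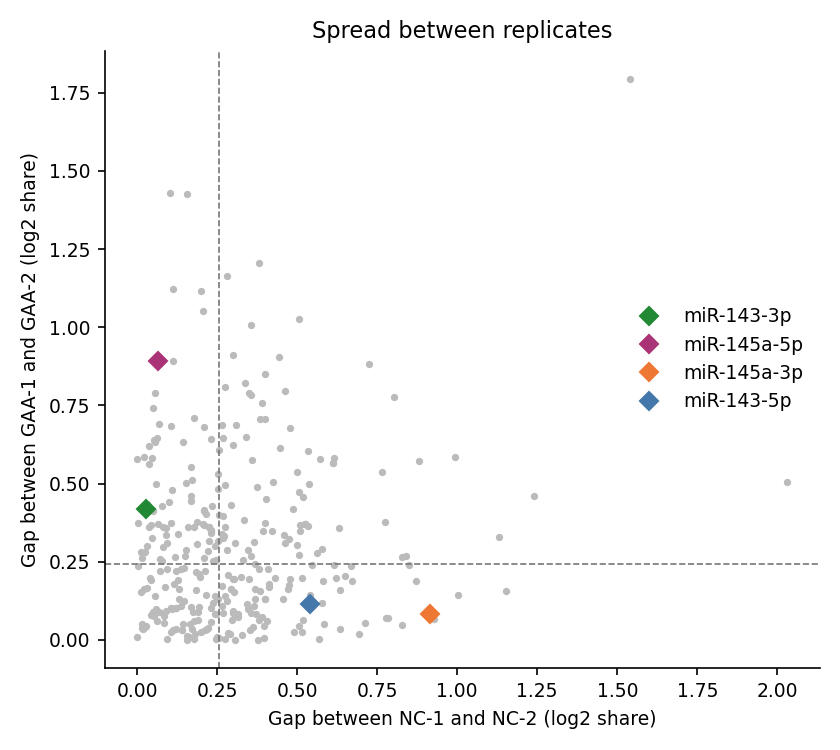
Absolute difference in log2 share of miRNA reads between the 2 NC samples (horizontal) and between the 2 GAA samples (vertical) for 323 miRNAs (grey) and the 4 members (diamonds); dashed lines are medians, 0.26 and 0.24. On this scale the guides miR-143-3p and miR-145a-5p lie at the upper left and the passengers at the lower right. The miR-143-5p gap in NC rests on 45 and 38 reads with overlapping counting intervals. On log2(RPM + 1) this order turned for both mir-143 arms. Gaps in NC and GAA were there 0.35 and 0.26 for miR-143-3p and 0.17 and 0.26 for miR-143-5p.

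Across the 4 samples no member had another member of the cluster among its 3 nearest profiles. The distance between log2 shares, each centred on its own mean, was computed against 322 other miRNAs. Nearest to miR-143-3p were miR-500-3p (distance 0.088), miR-744-5p and miR-328-3p, against a median of 0.587. Nearest to miR-145a-5p were miR-3535 (0.133), miR-1983 and miR-351-5p, against a median of 0.776. miR-145a-5p came only at place 282 from miR-143-3p (0.953). For miR-145a-3p the nearest were miR-362-3p (0.110), miR-503-3p and miR-193a-3p, and its own 5p arm came at place 269 (1.004). The closest member was miR-143-5p, at place 30 from miR-145a-3p (0.423, against a median of 0.727). For miR-143-5p the nearest were miR-29a-3p (0.0856), miR-214-5p and miR-130b-3p, whereas miR-143-3p came at place 191. With 4 samples many profiles come close by number alone, and these distances are a description.

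The libraries were checked against miRNAs known from other cells, from lists that also place the cluster among its usual company. All 8 striated muscle miRNAs had reads, with a summed level of 17349 and 23320 RPM in NC and 23785 and 21002 RPM in GAA. Most of the sum was miR-378a-3p and miR-486a-5p, whose log2 fold changes in RPM were 0.50 and 0.12. All other miRNAs of the list had negative ones, from -0.25 (miR-133b-3p) to -2.62 (miR-208b-3p). Of these, miR-1a-3p had only 19.3 to 46.1 RPM. In share the 8 summed to 5.17% and 5.34% in NC and 4.22% and 4.17% in GAA, below the share of miR-143-3p alone. Their median log2 fold change was -0.48 in RPM and -0.96 in share. Of the 7 with 10 or more reads per sample, 4 had both GAA samples below both NC samples in RPM (2.79% of the 323 miRNAs) and 6 in share (19.8%). Of the 8, 1 (miR-208b-3p) was called, lower in GAA, in share only (0.115% of all 869 miRNAs, against 0% in RPM), and with any sample left out it was no longer called. All 18 miRNAs of the mesenchymal and stromal list had 10 or more reads per sample. Together they held 46.7% and 47.4% of the miRNA reads in NC and 49.0% and 50.4% in GAA. Most of this was miR-22-3p (16.5% to 21.1% over the samples), miR-21a-5p (12.4% to 18.5%) and miR-27b-3p (8.72% to 11.6%). Next in mean RPM, miR-199a-3p held 0.880% to 1.37%. How specific the miRNAs of this list are to mesenchymal cells was not tested. Of these 18, 0 were called on either scale, and their median log2 fold change was 0.54 in RPM and 0.06 in share.

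Markers of other cells were low beside the members, apart from miR-143-5p. The 6 epithelial miRNAs (the miR-200 family and miR-205-5p) summed to 1.24 to 3.05 RPM over the 4 samples, the 6 blood cell miRNAs to 11.0 to 21.02 RPM, and the 2 endothelial miR-126a arms to 11.0 to 18.0 RPM. The 3 neuronal and liver miRNAs summed to 28.0 to 62.9 RPM, nearly all of it miR-9-5p. Of the blood cell list, miR-223-3p had a single read, in GAA-1. No list separated smooth muscle cells or fibroblasts from myotubes, and which cells carried miR-143-3p was not tested. In such bulk samples, fewer cells of a type and less RNA per cell cannot be told apart.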

How the data were processed

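Small RNA of 4 samples was sequenced by the authors, filtered for quality, adaptors and length, mapped to GRCm38.p5 with miRDeep2 and matched to miRBase. The authors deposited log2 values of RPM + 1, where RPM is relative to all mappable reads. A miRNA without reads has no row and was set to 0. Base and added constant follow from the values, whose RPM rose in equal steps of 1 read in each sample. Of the values under 1000 reads, 96.6% to 97.8% were whole within 0.05 reads. The deposited values are logarithms, and the groups were compared on the log scale. No count model was fitted, although reads could be recovered from these steps.

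Tests between the groups used limma 3.58.1 (R 4.3.3, mean-variance trend, condition only, Benjamini-Hochberg adjustment), on log2(RPM + 1), on the same scale with miRNA reads as the divisor (share) and on arm ratios, with the abundance of the precursor as trend. Single ratios were compared with exact permutation tests in scipy 1.17.1. Ranks, profile distances and neighbouring pairs were described without a test. Alternatives were a pseudocount of 0.1, filters on low values, other divisors, a replicate block, no trend, and each sample left out.

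The members and lists were chosen with earlier results of these data known. The text names the members, the 5 most abundant miRNAs, neighbours in each order, the 3 nearest profiles and the leading list members. miR-1a-3p, miR-208b-3p, miR-223-3p, miR-9-5p and the pairs above miR-143-3p and miR-145a-5p were named after their values were seen.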

Additional observations from a re-analysis of the deposited data

How the results depend on the processing

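No member was called under any alternative tried, but the directions of most small changes were not stable. On log2(RPM + 1), median-of-ratios factors turned miR-143-3p to -0.13, miR-145a-5p to -0.35 and miR-145a-3p to -0.13. Division by miRNA reads without miR-143-3p gave -0.086, -0.30 and -0.081, and without the 5 most abundant miRNAs it turned miR-145a-5p to -0.21. In share, leaving out those 5 turned miR-143-3p to 0.0060 and miR-145a-3p to 0.011. With each sample left out, miR-145a-5p ranged from -0.35 to 0.70 in RPM. In share the ranges were -0.29 to 0.13 for miR-143-3p, -0.046 to 0.49 for miR-143-5p, -0.74 to 0.15 for miR-145a-5p and -0.53 to 0.38 for miR-145a-3p. The arm ratio ranged from -0.0045 to 0.51 for mir-143 and from -0.71 to 0.27 for mir-145a. The cause of these reversals was not tested, beyond the construction of each divisor and the sample left out. miR-143-5p in RPM was the only member value that kept its direction under all 12 alternatives.

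Over all miRNAs, the calls on log2(RPM + 1) rose from 0 to 1 with median-of-ratios factors and with each of the miRNA divisors. The calls in share fell from 1 to 0 with a pseudocount of 0.1 and without the mean-variance trend. They were also 0 with at least 10 reads required, but that filter removed miR-208b-3p, with 8 reads in GAA-2, before the test. It therefore cannot show whether this call holds. With at least 1 RPM required in every sample, 1 miRNA was called in share. With the replicate number as a block they numbered 6 in share and 0 in RPM, and no member was among them (lowest adjusted p of a member 0.508). Samples of the same number did not deviate together (correlation -0.15 across 323 miRNAs, which are not independent). The labels do not say whether equal numbers mark a pair, and this correlation, from 2 samples per group, cannot decide it. With 2 samples per group, p-values rest on the spread between 2 pairs of samples, and miR-143-5p, with 38 to 86 reads, also on few reads.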

Other observations

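The files also list miR-145b, which GENCODE M21 places as a separate hairpin on chromosome 18, at 69022199 to 69022273 (GRCm38), outside the cluster. The NC samples had 2 and 0 reads of it and the GAA samples 3 and 6, at or near the 3 reads taken as the smallest level that can be read. At 0 of 2065461 miRNA reads, NC-2 allows a share of up to 0.000145% by the limit of 3 reads used here for a count of 0, and the Wilson upper limit is 0.000186%.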
